A study of Mus musculus with 8 samples.

Results

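Igf2, H19, Ascl2, Kcnq1ot1, Cdkn1c, Slc22a18 and Phlda2 lie in a pair of neighbouring imprinted clusters on distal mouse chromosome 7, and their expression was followed through chimaeric embryos in which cells without Tet enzymes developed beside wild-type host cells. The 7 genes were taken by name from the 55422 features of the single-cell RNA-seq count matrices, and all 7 were measured in all 8 libraries. The chimaeras were made by injecting Tet-TKO embryonic stem (ES) cells, which are triple knockouts of Tet1, Tet2 and Tet3, into wild-type C57BL/6J blastocysts that were then transferred to CD1 recipient females. The Tet-TKO cells came from 1 line of C57BL/6J-129Sv background, were grown in 2i LIF medium, and were marked with a puromycin-selected H2B-tdTomato transgene under the CAG promoter. Pooled embryos were dissociated and sorted into tdTomato-positive cells (Tet-TKO) and tdTomato-negative cells (WT host). E8.5 embryos gave 4 Tet-TKO libraries and 2 WT host libraries, and E7.5 embryos gave 1 library for each genotype. Genotype, strain background and origin from cultured ES cells differ together between the 2 sorted fractions and cannot be told apart. Nothing in the labels says that the E8.5 libraries came from separate sets of chimaeras, so a p-value here measures the spread between libraries, which may be technical.

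An imprinted gene is expressed mainly from the maternal or from the paternal chromosome, following DNA methylation that was set in the germ line at an imprinting control region. In the Igf2-H19 cluster, the paternal chromosome makes Igf2, a growth factor of the placenta and embryo, and the maternal chromosome makes H19, a long non-coding RNA that is also the precursor of the microRNA miR-675. In the Kcnq1 cluster, the paternal chromosome makes the long non-coding RNA Kcnq1ot1, which silences its neighbours in cis, and the maternal chromosome makes Cdkn1c (the cyclin-dependent kinase inhibitor p57), Phlda2 (a restrainer of placental growth), Slc22a18 (a membrane transporter) and Ascl2 (a bHLH transcription factor of the trophoblast). Tet enzymes oxidise methylated cytosine in CpG dinucleotides, which opens a route to its removal. The counts sum both parental copies, so they give the amount of each transcript and not its allele of origin.

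In mm10 coordinates of the GENCODE M21 annotation, H19 is at chr7:142575529-142578143, Igf2 at chr7:142650766-142666816, Ascl2 at chr7:142966829-142969264, Kcnq1ot1 at chr7:143203458-143296549, Cdkn1c at chr7:143458339-143461050, Slc22a18 at chr7:143473736-143499334 and Phlda2 at chr7:143501545-143503150. Slc22a18 is on the plus strand and the other 6 are on the minus strand. Kcnq1ot1 spans 93092 bases inside Kcnq1 on the opposite strand, and 1.20% of its exonic bases overlap exons there. An antisense model, Gm44732, covers 30.7% of the exonic bases of Cdkn1c and had 3 to 14 UMIs per library. The mature microRNAs of the H19 transcript are shown because an H19 count is a count of their precursor, and capitals mark the seed, bases 2 to 8 from the 5′ end. They lie within H19 at chr7:142577112-142577133 and chr7:142577078-142577099 on the minus strand (RefSeq).
miR-675-5p: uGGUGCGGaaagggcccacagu
miR-675-3p: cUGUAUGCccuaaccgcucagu

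Among 32851 RefSeq promoter windows of 300 bases in GRCm38.p6, from 250 bases before to 50 after the transcript start, the median number of CpG dinucleotides was 7, and 8 of the windows belonged to 5 of the members. The Phlda2 window had 26, the Ascl2 window 23, the Kcnq1ot1 window 9 and the Slc22a18 window 2, while the 4 windows of Igf2 had 7, 24, 14 and 2. Windows with at least as many CpGs as that of Phlda2 made up 16.9% of all windows, and 45.8% had at least as many as that of Kcnq1ot1. The windows of Phlda2 (chr7:143502475-143502774, minus strand) and Kcnq1ot1 (chr7:143296498-143296797, minus strand) are shown because these members moved in opposite directions between the Tet-TKO library pairs described below, and capitals mark each CpG. No methylation was measured in these libraries.
Phlda2: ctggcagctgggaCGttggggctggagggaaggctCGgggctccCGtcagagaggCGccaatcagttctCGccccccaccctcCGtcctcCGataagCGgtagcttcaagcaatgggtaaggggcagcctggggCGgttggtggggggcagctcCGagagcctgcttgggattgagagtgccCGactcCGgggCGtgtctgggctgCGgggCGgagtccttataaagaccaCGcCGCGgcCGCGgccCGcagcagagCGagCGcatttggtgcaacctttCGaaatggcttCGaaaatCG
Kcnq1ot1: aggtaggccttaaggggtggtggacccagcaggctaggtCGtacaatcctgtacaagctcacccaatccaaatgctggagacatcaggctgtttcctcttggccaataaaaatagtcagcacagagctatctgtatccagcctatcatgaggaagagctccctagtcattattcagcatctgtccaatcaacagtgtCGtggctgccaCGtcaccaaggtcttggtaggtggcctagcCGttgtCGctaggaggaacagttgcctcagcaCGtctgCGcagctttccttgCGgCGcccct

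The kept cells numbered 37211 at E8.5 and 12655 at E7.5, from 1012 to 9552 cells and 65082949 to 136773098 unique molecular identifiers (UMIs) per library. Tet-TKO libraries 1 and 2 resembled each other, as did Tet-TKO libraries 3 and 4, and each pair stood apart from the other: chi-square divided by its degrees of freedom, over genes, was 15.5 and 18.7 within the pairs and at least 179 between them, against 141 between the WT host libraries. The median depth was 18763 and 12176 UMIs per cell in Tet-TKO libraries 1 and 2, 40386.5 and 68704 in libraries 3 and 4, and 15228 and 13663.5 in the WT host libraries. Results are therefore also given for each pair. Tet1 was at 9.93, 11.0, 20.1 and 20.9 CPM (UMIs scaled to an equal total per library) in Tet-TKO libraries 1 to 4 and at 22.6 and 20.4 CPM in the WT host libraries. Tet2 was at 5.99, 5.56, 10.6 and 9.71 CPM against 4.67 and 4.63 CPM, and Tet3 at 23.5, 22.5, 37.5 and 36.4 CPM against 23.1 and 23.2 CPM, so Tet2 was above the host in all 4 Tet-TKO libraries and Tet3 in 3 of them. The 3′ tags need not cover the deleted exons, so these levels check nothing. A tdTomato UMI was found in 60.8% to 87.2% of the cells of each Tet-TKO library and in 0.532% to 0.841% of the cells of each WT host library. Any 2 libraries shared from 0 to 28 cell barcodes, at most 0.434% of the smaller library. Cells were clustered without the members, and a cluster took a cell-class name with the suffix "-like" only from its markers, which gave 19 named classes at E8.5 and 16 at E7.5.

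In the WT host cells of E8.5, Igf2, Cdkn1c and Phlda2 were highest in allantois-like (extraembryonic mesoderm) or mesenchyme-like cells, and Igf2, H19 and Phlda2 were lowest in neural classes, whereas Kcnq1ot1 was highest in notochord-like cells and varied less between classes. Levels are CPM of the UMIs summed over the cells of a class in a library, and values are the mean ± SD of 2 libraries over 23 classes. Igf2 was highest in mesenchyme-like cells at 28.0 ± 6.08 CPM (SD, n = 2), cluster 25 at 26.5 ± 4.73 and allantois-like cells at 24.7 ± 2.66, and these 3 levels overlapped. Cardiomyocyte-like cells followed at 17.1 CPM and endothelium-like cells at 14.6 CPM, each apart from its neighbours, and the lowest class was neural crest-like at 0.141 CPM. That lowest level rested on 0 and 1 UMI in the host libraries and overlapped neurectoderm-like cells at 0.237 CPM. Cluster 25 is a group of 622 cells with Mab21l2, Psd, Wnt2 and Krt13 among its leading genes. It raised all 5 mesenchyme markers but was too close to a second class to be named. For H19, ExE endoderm-like (yolk sac) cells at 1152 ± 16.4 CPM, mesenchyme-like cells at 1076 ± 338, allantois-like cells at 1039 ± 168.5 and cluster 25 at 1010 CPM came first, each overlapping the next in this order (ExE endoderm-like cells and cluster 25 did not overlap), and neurectoderm-like cells were lowest at 22.2 ± 7.57 CPM.

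The maternally expressed genes of the Kcnq1 cluster differed from one another in their order. Cdkn1c was highest in allantois-like cells at 2986 ± 320.1 CPM (SD, n = 2) and cardiomyocyte-like cells at 1922 ± 585.4 CPM, and lowest in blood progenitor-like cells at 15.1 CPM. Of its 22 pairs of neighbours in the order, 14 did not overlap, against 2 to 6 for each other member. Phlda2 was at 3683 ± 3.61 CPM in allantois-like cells, clear of cluster 25 at 1711 ± 143.7 CPM, and reached 17.1 ± 5.25 CPM in neurectoderm-like cells. Slc22a18 was highest in ExE endoderm-like cells at 22.5 ± 3.43 CPM, followed by allantois-like cells at 10.2 ± 0.565 CPM. Ascl2 was highest in cluster 33, an unnamed group of 306 cells led by Dppa3, Rhox9, Dnd1, Dppa5a and Utf1, but at 8.99 CPM in 1 host library and 123.2 CPM in the other. ExE ectoderm-like (trophoblast) cells were numerous enough for a sum only in WT host library 1, with 136 cells, and had Ascl2 at 154.3 CPM, Phlda2 at 2260 CPM and H19 at 548.6 CPM. According to the paper, injected ES cells made no contribution to the trophoblast, whether WT control or Tet-TKO. Kcnq1ot1 ranged only from 247.7 ± 22.8 CPM in notochord-like cells to 51.1 CPM in cluster 33.

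Per cell, a Phlda2 UMI was found in 99.9% and 100% of allantois-like cells of the WT host libraries at a median of 16040 and 14230 UMIs per cell, and in 21.9% and 12.5% of neurectoderm-like cells at 14520 and 12640 UMIs per cell. After thinning to 5000 UMIs per cell, which left out 10 and 20 of the allantois-like and 17 and 43 of the neurectoderm-like cells, the shares were 99.6% and 99.6% against 8.94% and 5.68%. The neurectoderm-like share is the level at which free RNA in droplets cannot be told from expression.

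**Figure D1:**
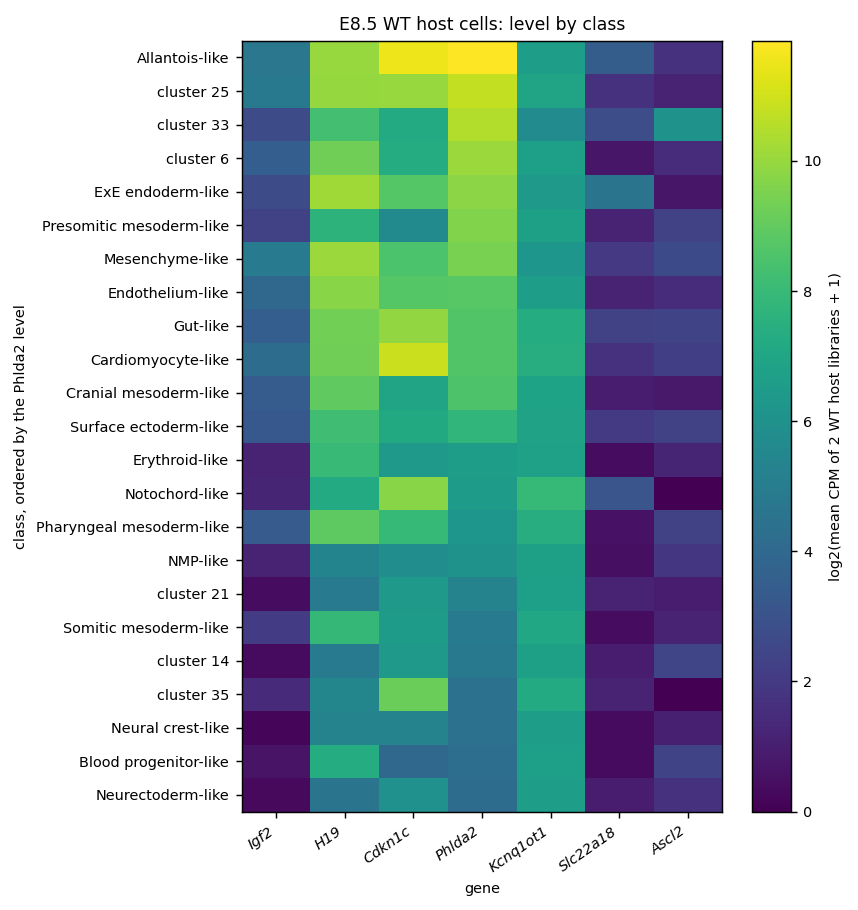
Colour gives log2(mean CPM + 1) of the 2 WT host libraries at E8.5 for each member and each of 23 cell classes, with classes ordered by their Phlda2 level. Igf2, H19 and Phlda2 darken towards the same end of the order, with Phlda2 at 3683 CPM in allantois-like and 17.1 CPM in neurectoderm-like cells, while Kcnq1ot1 changes little.

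Across these 23 class means of log2(CPM + 1), Pearson's r was 0.90 between Igf2 and H19, 0.83 between Igf2 and Phlda2 and 0.82 between H19 and Phlda2. Kcnq1ot1 had r of -0.04 with Igf2, -0.06 with H19 and -0.30 with Phlda2. Over 7644 genes, the 3 with the pattern most like Igf2 were Gata6 (r = 0.93), Rgs5 (0.92) and Igf2r (0.92), the last being the receptor that clears Igf2 protein. For H19 they were Slc25a4 (0.89), Polg (0.88) and Gata6 (0.87), for Cdkn1c Nipsnap2 (0.87), Sgce (0.86) and Akr1a1 (0.84), and for Phlda2 Tbx3 (0.93), Prdm6 (0.92) and Smad6 (0.91). For Kcnq1ot1 they were Btg1 (0.85), Col2a1 (0.81) and Zfp68 (0.81), for Slc22a18 Trip12 (0.89), Napa (0.89) and Rnh1 (0.88), and for Ascl2 Dppa3 (0.79), Utf1 (0.78) and Zfp407 (0.75). Ascl2 was at 66.1 CPM in cluster 33, which has Dppa3 and Utf1 among its leading genes, and at 5.3 CPM in the next class. The part of cluster 33 in the correlations of Ascl2 was not tested. The classes share libraries and depth, so these correlations are descriptions of the class means only.

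Whether Tet loss altered the members at E8.5 was first asked on whole libraries, where 0 of the 7 were called at an adjusted p of 0.01 and a log2 fold change of 1 by the edgeR quasi-likelihood test (Benjamini-Hochberg adjusted). The same thresholds called 2.65% of the 21075 genes tested, 2 of the members had an unadjusted p under 0.05, and DESeq2 also called 0. In sums over all cells, fewer cells of a type and less RNA per cell cannot be told apart.

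Igf2, the paternally expressed growth factor, was at 10.6, 12.5, 17.8 and 19.6 CPM in Tet-TKO libraries 1 to 4 and at 7.74 and 6.6 CPM in the WT host libraries. All 4 Tet-TKO libraries lay above both WT host libraries. The log2 fold change of Tet-TKO over WT host was 0.97 (SE 0.22, edgeR adjusted p = 0.0361), which did not pass the test. Of the last 1000 exonic bases of Igf2, 99.7% are shared on the same strand with the gene model Gm49394, so reads from this stretch cannot be assigned to 1 gene and the listed Igf2 level may be below the true one. Gm49394 itself had 1 to 37 UMIs per library. Igf2os, the antisense transcript, was at 6.24, 6.79, 8.88 and 9.23 CPM against 4.57 and 3.50 CPM, with a log2 fold change of 0.85 (SE 0.18, edgeR adjusted p = 0.0277), and did not pass either.

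H19, the maternally expressed RNA of the same cluster, was at 340.3, 323.9, 470.6 and 472.5 CPM in Tet-TKO libraries 1 to 4, where host libraries 1 and 2 had 471.6 and 417.1 CPM. Tet-TKO libraries 1 and 2 were lower than the host and libraries 3 and 4 were level with it, and the log2 fold change was -0.24 (SE 0.14, edgeR adjusted p = 0.313).

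Kcnq1ot1, the silencing RNA of the Kcnq1 cluster, was at 88.3, 89.1, 188.7 and 183.5 CPM in Tet-TKO libraries 1 to 4 and at 110.1 and 111.6 CPM in the WT host libraries. The host lay between the library pairs, with a log2 fold change of 0.20 (SE 0.30, edgeR adjusted p = 0.713). Among the other genes of the cluster, Phlda2 was at 1039, 931, 423.7 and 357.1 CPM against 706.5 and 384.8 CPM, so that its pairs stood the other way round from those of Kcnq1ot1. Its log2 fold change was 0.30 (SE 0.54, edgeR adjusted p = 0.760). Allantois-like cells, where Phlda2 was highest, made up 1272 of 7045, 1766 of 9552, 196 of 2304 and 71 of 1012 cells in Tet-TKO libraries 1 to 4. In the host they were 671 of 8260 and 435 of 9038 cells, and the part of these shares was not tested. Cdkn1c was at 507, 575, 455 and 402.6 CPM against 540.8 and 358.5 CPM, overlapping throughout, with a log2 fold change of 0.04 (SE 0.24, edgeR adjusted p = 0.928).

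Slc22a18, the transporter, was at 2.38, 2.29, 1.41 and 0.953 CPM in the 4 Tet-TKO libraries against 4.15 and 2.06 CPM in the host. Ascl2, the trophoblast factor, was at 3.12, 2.21, 0.754 and 0.891 CPM against 6.58 and 3.43 CPM. All 4 Tet-TKO libraries had less Ascl2 than either host library, and those of Slc22a18 overlapped with the host. The log2 fold changes of Slc22a18 and Ascl2 were -0.85 (SE 0.46) and -1.54 (SE 0.62), with edgeR adjusted p of 0.284 and 0.173. With 1 library left out, the value ranged from -1.26 to -0.29 for Slc22a18 and from -2.01 to -1.02 for Ascl2, and without ExE ectoderm-like and ExE endoderm-like cells it was -0.93 for Ascl2. Cluster 33 stayed in that sum, and its 57 cells in WT host library 2 gave 133 of the 435 Ascl2 UMIs of that library.

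**Figure D2:**
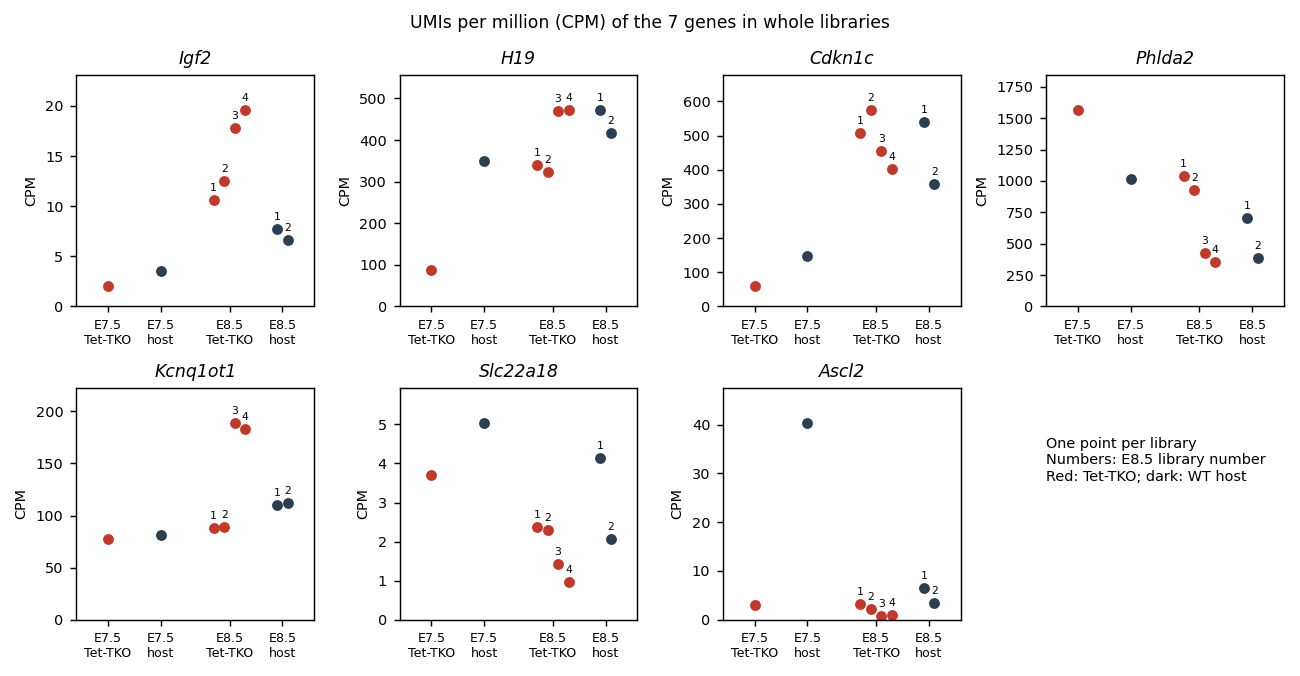
Each point is the CPM of 1 member summed over all kept cells of 1 library, for each sorted fraction at E7.5 and E8.5. At E8.5 the 4 Tet-TKO points of Kcnq1ot1 split into 88.3 and 89.1 against 188.7 and 183.5 CPM, and at E7.5 Ascl2 is at 3.05 CPM in Tet-TKO and 40.3 CPM in WT host cells.

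Since the sorted fractions differ in their share of cell classes, each class was also tested alone. Over 22 classes and 119 member and class pairs, 2 pairs were called by edgeR's quasi-likelihood test: H19 fell in erythroid-like cells and Phlda2 fell in cluster 25. The same thresholds called 0.658% of 230445 gene and class pairs, and 24 of the member pairs had an unadjusted p under 0.05. H19 in erythroid-like cells was at 140.4, 98.8, 111.3 and 86.2 CPM in Tet-TKO libraries 1 to 4 and at 230.3 and 273.6 CPM in the WT host libraries. The groups did not overlap, and the log2 fold change was -1.43 (SE 0.18, edgeR adjusted p = 0.00252). These Tet-TKO sums held 17, 120, 31 and 11 cells against 820 and 1930, and the summed level of 8 erythroid markers in them was 33770 to 66960 CPM against 102400 and 158500 CPM in the host. The 8 ExE endoderm markers, of the class with most H19, summed to 0 to 2.86 CPM in these Tet-TKO sums, with 4 to 8 of them at 0, against 96.1 and 27.3 CPM in the host with none at 0. The part of both marker sets in the result was not tested. H19 there lost its call when Tet-TKO library 2 or 3 was left out (edgeR adjusted p of 0.0139 and 0.0178), and when host library 1 or 2 was (edgeR adjusted p of 0.01003 and 0.0538). It was also lost with the alike Tet-TKO libraries summed in pairs (-1.45, edgeR adjusted p = 0.0134) and with at least 30 cells per sum (-1.49, edgeR adjusted p = 0.0103).

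Phlda2 in cluster 25 was at 555.9, 430.1, 248.5 and 357.4 CPM in Tet-TKO libraries 1 to 4 and at 1812 and 1609 CPM in the WT host libraries. Every Tet-TKO library was below both host libraries, with a log2 fold change of -2.13 (SE 0.28, edgeR adjusted p = 0.00289). The value was -1.75 with Tet-TKO libraries 1 and 2 only and -2.63 with libraries 3 and 4 only, and with the libraries summed in pairs it was -2.12 and still called. It lost its call without WT host library 1 (edgeR adjusted p = 0.100) or library 2 (edgeR adjusted p = 0.0479), where the lone host library is assumed to vary like the others. The summed level of 8 erythroid markers in the cluster was 6.79 to 34.3 CPM over the Tet-TKO libraries but 473.4 and 1309 CPM over the host libraries, and that of the 5 mesenchyme markers 1502 to 1905 CPM against 2077 and 2563 CPM. The ExE endoderm markers summed to 6.62 to 11.9 CPM there against 42.0 and 23.5 CPM, and the part of these sets in the result was not tested.

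Cdkn1c, the cell-cycle inhibitor, passed no class test, but in several classes its Tet-TKO libraries did not overlap with the host. All Tet-TKO libraries with a sum lay below both host libraries in 4 of 22 classes, against 13.1% of all gene and class pairs. They lay above in 2 of 22 (pharyngeal mesoderm-like and cranial mesoderm-like), against 10.9% of all pairs. In mesenchyme-like cells Cdkn1c was at 208.1, 184.1, 180.0 and 180.5 CPM in Tet-TKO libraries 1 to 4 and at 366.6 and 348.5 CPM in the WT host libraries. Every Tet-TKO library lay below the host, with a log2 fold change of -0.97 (SE 0.15, edgeR adjusted p = 0.0122). The 5 mesenchyme markers there summed to 2524 to 3227 CPM in the Tet-TKO libraries against 4685 and 6250 CPM in the host, whose part in the result was not tested. In allantois-like cells it was at 1548, 2012, 1875 and 1850 CPM against 2760 and 3212 CPM, again without overlap, at -0.72 (SE 0.13, edgeR adjusted p = 0.0335). Cluster 25 was at 374.6, 331.3, 709.7 and 646.2 CPM against 1104 and 990.5 CPM. This was a log2 fold change of -1.09 (SE 0.24, edgeR adjusted p = 0.0492). In gut-like cells the Tet-TKO libraries had 487.3 to 692.7 CPM, below the 955 and 988 CPM of the host. The log2 fold change there was -0.64 (SE 0.16, edgeR adjusted p = 0.0882). In pharyngeal mesoderm-like cells the order was opposite, with 430.6, 372.3, 369.3 and 421.5 CPM in the Tet-TKO libraries, all above the 247.8 and 237.8 CPM of the host, at 0.74 (SE 0.14, edgeR adjusted p = 0.0285).

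**Figure D3:**
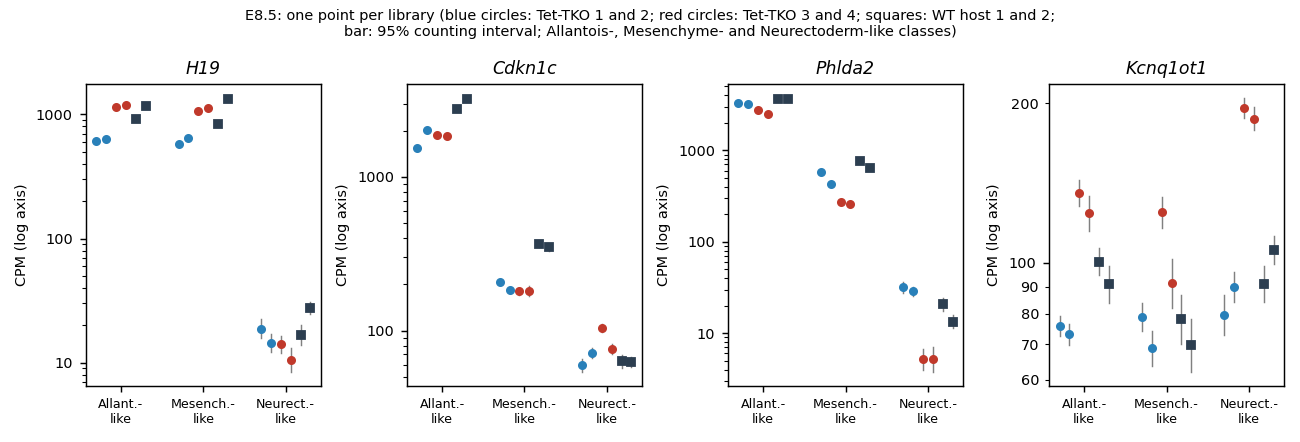
Points give CPM (log axis) of H19, Cdkn1c, Phlda2 and Kcnq1ot1 in allantois-like, mesenchyme-like and neurectoderm-like cells of each E8.5 library. Cdkn1c in mesenchyme-like cells is at 180.0 to 208.1 CPM in the 4 Tet-TKO libraries and at 348.5 and 366.6 CPM in the host, while its neurectoderm-like levels overlap.

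That the Cdkn1c difference between genotypes was not equal in extraembryonic mesoderm and neural cells was tested as an interaction of class and genotype. In neurectoderm-like cells Cdkn1c was at 59.5, 71.3, 103.9 and 75.9 CPM in the 4 Tet-TKO libraries, and the host had 63.2 and 62.4 CPM. Only Tet-TKO library 1 was below the host there. The genotype effect in allantois-like cells minus that in neurectoderm-like cells was -1.02 (SE 0.14, edgeR adjusted p = 0.00303), which passed the test, as 0.196% of 14309 genes did. For Igf2, H19, Phlda2, Kcnq1ot1, Slc22a18 and Ascl2 the difference was -1.61, 0.38, -0.29, -0.35, 0.58 and -0.36, with edgeR adjusted p from 0.331 to 0.895. The call for Cdkn1c was lost under the minimum fold without Tet-TKO library 3 (-0.87), with Tet-TKO libraries 1 and 2 only (-0.83), with no filter on low counts (-0.99) and in tdTomato-matched cells (-0.97), and it lost the adjusted p without WT host library 1 (edgeR adjusted p = 0.0292) or library 2 (edgeR adjusted p = 0.0715). Summed erythroid markers were at 6.41 to 51.1 CPM in the Tet-TKO sums of the allantois-like, mesenchyme-like, neurectoderm-like and cluster 25 cells and at 454 to 1457 CPM in those of the host, and summed ExE endoderm markers at 5.34 to 16.3 CPM against 23.5 to 55.5 CPM. Their part was not tested.

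H19 had a negative log2 fold change in 21 of its 22 classes, with a median of -0.49, where the median over all genes of a class lay between 0.00151 and 0.0209. It was negative in 20 of 20 classes with Tet-TKO libraries 1 and 2 only, at a median of -0.67, and in 10 of 18 with libraries 3 and 4 only, at -0.12. In blood progenitor-like cells it was at 131.4, 74.4, 77.6 and 88.2 CPM against 154.9 and 161.6 CPM, without overlap, at -0.88 (edgeR adjusted p = 0.0353). Gut-like cells had 227.3, 165.5, 468.3 and 420.4 CPM against 587.7 and 694.2 CPM, at -0.97 (edgeR adjusted p = 0.210). All Tet-TKO libraries were again below the host, but libraries 1 and 2 lay far below libraries 3 and 4. In cluster 33 the value was -2.22 (edgeR adjusted p = 0.210), resting on WT host library 2 at 559.4 CPM, while host library 1 was at 72.0 CPM, inside the Tet-TKO range of 48.4 to 121.4 CPM.

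Igf2 had a positive log2 fold change in 13 of the 14 classes where it could be tested, with a median of 0.47 and a smallest edgeR adjusted p of 0.158, in NMP-like cells (neuromesodermal progenitors). It was positive in 8 of 14 classes with Tet-TKO libraries 1 and 2 only (median 0.09) and in 13 of 14 with libraries 3 and 4 only (0.79). In NMP-like cells it was at 2.55, 3.25, 4.27 and 3.77 CPM in Tet-TKO libraries 1 to 4, all above the 1.56 and 0.965 CPM of the host, with 4 to 29 UMIs behind each value. In the mesenchyme-like cells, where the host had most Igf2, the Tet-TKO levels of 20.5, 28.5, 53.0 and 65.4 CPM overlapped the 23.7 and 32.3 CPM of the host.

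Phlda2 was positive in 9 and negative in 13 of 22 classes, with a median of -0.13. The median was 0.53 with Tet-TKO libraries 1 and 2 only and -1.33 with libraries 3 and 4 only. In allantois-like cells, its main site, it was at 3266, 3253, 2795 and 2503 CPM against 3686 and 3681 CPM, and every Tet-TKO library lay below the host. In endothelium-like cells it was at 883.3, 650.9, 805.9 and 856.6 CPM against 543.6 and 335.5 CPM, all above the host, at 0.86 (edgeR adjusted p = 0.0676). Gut-like and cardiomyocyte-like cells had the next largest values after cluster 25, at -1.24 (edgeR adjusted p = 0.423) and -1.14 (edgeR adjusted p = 0.307).

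Kcnq1ot1 was positive in 21 of 22 classes, with a median of 0.25, but negative in 18 of 21 classes with Tet-TKO libraries 1 and 2 only (median -0.21) and positive in 18 of 18 with libraries 3 and 4 only (0.59). Its largest value was 1.07 in cluster 33 (edgeR adjusted p = 0.301), with 79.3, 80.2 and 160.2 CPM in the first 3 Tet-TKO libraries and 54.0 and 48.2 CPM in the host. Tet-TKO library 4 had only 9 cells there, under the minimum of 10, and did not enter the fit. Cluster 33 was the only class where each Tet-TKO library with a sum lay above the host. Slc22a18 could be tested in 5 classes, 4 of them negative, and in allantois-like cells was at 5.44, 6.20, 7.01 and 3.29 CPM, below the 9.80 and 10.6 CPM of the host, at -0.85 (edgeR adjusted p = 0.201). Ascl2 was negative in 10 of 12 classes, with a median of -0.67. Its largest value was -3.49 in cluster 33 (edgeR adjusted p = 0.149), resting on WT host library 2 at 123.2 CPM. Host library 1 was at 8.99 CPM there, inside the Tet-TKO range of 3.02 to 11.87 CPM. In mesenchyme-like cells it was at 2.24, 1.66, 0 and 0.267 CPM against 5.65 and 4.92 CPM, without overlap, at -2.08 (edgeR adjusted p = 0.261).

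Counted by overlap alone, every Tet-TKO library with a sum (all 4 in 18 classes, 3 or 2 in the others) lay above both host libraries in 7 of 17 classes for Igf2, 2 of 22 for Cdkn1c, 1 of 22 for Phlda2, 1 of 22 for Kcnq1ot1, 1 of 17 for Slc22a18, and 0 classes for H19 and Ascl2. This order held for 10.9% of all 318569 gene and class pairs. All of them lay below in 5 of 22 classes for H19, 4 of 22 for Cdkn1c, 3 of 22 for Phlda2, 6 of 17 for Slc22a18 and 3 of 18 for Ascl2, and in 0 classes for Igf2 and Kcnq1ot1, against 13.1% of all pairs. The 7 classes of Igf2 were NMP-like, cranial mesoderm-like, neurectoderm-like, pharyngeal mesoderm-like, endothelium-like, cardiomyocyte-like and somitic mesoderm-like. Neurectoderm-like Igf2 rested on 2 UMIs in each host library. Some margins were small: the lowest Tet-TKO and highest host values were 5.67 and 5.61 CPM in somitic mesoderm-like and 17.65 and 17.4 CPM in cardiomyocyte-like cells. The 5 classes of H19 were presomitic mesoderm-like, erythroid-like, blood progenitor-like, gut-like and cluster 14. In cluster 14 H19 was low, at 11.65 to 19.75 CPM in Tet-TKO against 25.81 and 30.67 CPM in the host. The part of free RNA in droplets in that order was not tested.

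Averaged with equal weight over 18 classes present in all 6 libraries, the difference of Tet-TKO minus WT host in mean log2(CPM + 1) was 0.42 for Igf2, -0.50 for H19, -0.12 for Cdkn1c, -0.52 for Phlda2, 0.23 for Kcnq1ot1, -0.31 for Slc22a18 and -0.51 for Ascl2. The two-sided exact permutation p was 0.267 for Igf2, H19 and Slc22a18, 0.4 for Cdkn1c and Ascl2, 0.667 for Phlda2 and 0.8 for Kcnq1ot1, where 4 against 2 libraries cannot go below 0.133. On this scale Kcnq1ot1 was at 6.54, 6.59, 7.55 and 7.54 in Tet-TKO libraries 1 to 4 and at 6.80 and 6.85 in the host. Phlda2 was at 7.84, 7.59, 6.56 and 6.08 against 7.79 and 7.28.

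The 2 pairs of Tet-TKO libraries were then each compared with the host, a choice made after the split was seen. With Tet-TKO libraries 1 and 2 only, 7 of 116 member and class pairs were called, against 1.86% of all gene and class pairs. H19 fell in 5 classes: cluster 6 (-1.27), erythroid-like (-1.40), gut-like (-1.57), presomitic mesoderm-like (-1.29) and surface ectoderm-like cells (-1.21). The other calls were lower Cdkn1c (-1.53) and Phlda2 (-1.75) in cluster 25. With Tet-TKO libraries 3 and 4 only, 21 of 99 pairs were called, against 4.74% of all pairs. Phlda2 fell in 10 classes, with log2 fold changes of -1.26 to -2.68, Ascl2 fell in 5, H19 fell in 2, Cdkn1c fell in mesenchyme-like cells (-1.11), Igf2 rose in 2 and Kcnq1ot1 rose in cluster 14 (1.05). In whole libraries, 0 members were called with libraries 1 and 2, against 2.29% of all genes. With libraries 3 and 4, Igf2 rose by 1.20 (SE 0.11, edgeR adjusted p = 0.00187) and Ascl2 fell by 2.79 on the log2 scale (SE 0.35, edgeR adjusted p = 0.00357), against 9.77% of all genes called.

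The 10 classes in which Phlda2 fell with libraries 3 and 4 were gut-like (-2.68), cluster 25 (-2.63), cranial mesoderm-like (-2.16), cardiomyocyte-like (-2.02), blood progenitor-like (-1.87), neurectoderm-like (-1.75), mesenchyme-like (-1.53), cluster 6 (-1.47), cluster 14 (-1.41) and surface ectoderm-like cells (-1.26). Host means were only 17.1 CPM in neurectoderm-like, 18.65 in blood progenitor-like and 26.66 in cluster 14 cells. At the neurectoderm-like level free RNA in droplets cannot be told from expression, and its part in these 3 calls was not tested. In gut-like cells Phlda2 was at 300.0, 189.7, 72.1 and 46.7 CPM in Tet-TKO libraries 1 to 4 and at 493.1 and 291.9 CPM in the host. In surface ectoderm-like cells it was at 362.3, 242.9, 88.5 and 104.1 CPM. Of the host values there, 185.0 CPM lay between the pairs and 256.8 CPM lay within the range of Tet-TKO libraries 1 and 2. In mesenchyme-like cells Phlda2 was at 573.5, 430.7, 269 and 261.4 CPM, all below the 759.2 and 645.1 CPM of the host. Ascl2 fell in allantois-like, mesenchyme-like, neurectoderm-like and presomitic mesoderm-like cells and in cluster 14, all with few UMIs: in mesenchyme-like cells the Tet-TKO libraries had 30, 16, 0 and 1 of them, and the host libraries had 25 and 21. H19 fell in erythroid-like (-1.52) and blood progenitor-like cells (-1.12), and Igf2 rose in cranial mesoderm-like cells (1.32) and cluster 6 (1.05).

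The medians over classes of Phlda2 and Kcnq1ot1 thus had opposite signs in the 2 pairs. Those of Ascl2 were -0.39 with libraries 1 and 2 and -2.30 with libraries 3 and 4, and those of Cdkn1c 0.04 and 0.06. Libraries 3 and 4 are also the deeper ones per cell, whose part in the split was not tested. In neurectoderm-like cells thinned to 5000 UMIs, a Kcnq1ot1 UMI was found in 30.4% and 33.5% of cells of Tet-TKO libraries 1 and 2, 57.2% and 54.6% of those of libraries 3 and 4, and 34.5% and 37.1% of those of the host. Before thinning, which left out 1 to 58 cells per library, the shares were 64.1%, 57.8%, 98.4% and 93.1% in the Tet-TKO libraries and 65.5% and 64.3% in the host. Neurectoderm-like Kcnq1ot1 levels were 79.7, 90.0, 196.2 and 187.1 CPM against 91.1 and 105.6 CPM.

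**Figure D4:**
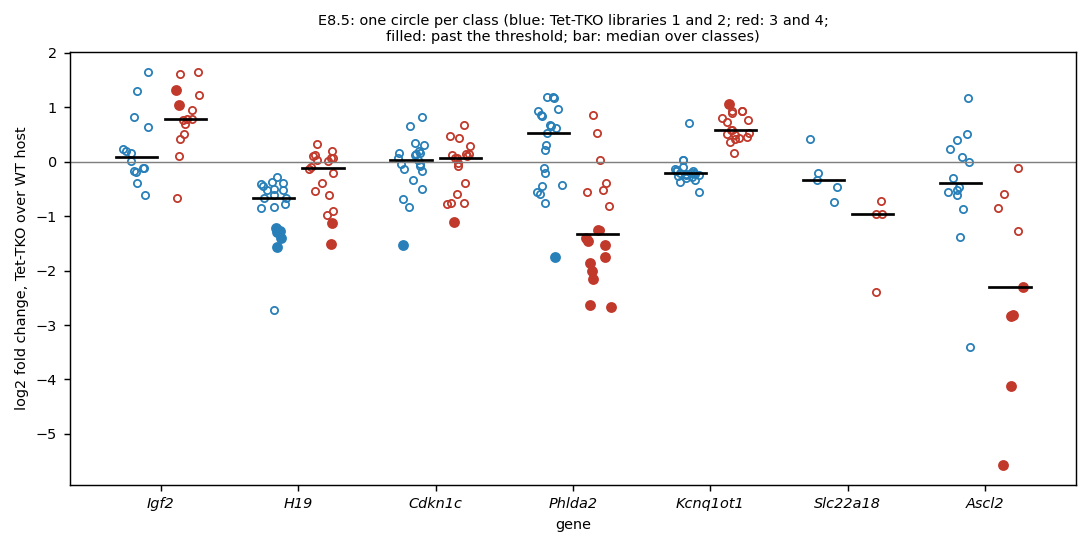
Each circle is the edgeR log2 fold change (Tet-TKO over WT host) of 1 member in 1 cell class at E8.5, with Tet-TKO libraries 1 and 2 only in blue and libraries 3 and 4 only in red, and filled circles passed the test. Bars mark medians, which for Phlda2 are 0.53 and -1.33 and for Kcnq1ot1 -0.21 and 0.59.

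A day earlier, at E7.5, each genotype had 1 library, so the values carry no test and their 95% intervals cover counting error only. Ascl2, H19 and Cdkn1c, 3 of the 7 members, were at least 2-fold lower in Tet-TKO than in WT host cells, against 9.32% of 14695 genes, and 0 were at least 2-fold higher, against 3.52% of genes. Ascl2 was at 3.05 CPM in Tet-TKO and 40.3 CPM in WT host cells, a log2 ratio of -3.72 (-3.89 to -3.56). ExE ectoderm-like cells, the trophoblast that normally makes Ascl2, comprised 14 Tet-TKO and 1895 host cells, and within them Ascl2 was at 73.3 and 114.3 CPM. The paper reports that injected ES cells, WT control and Tet-TKO alike, did not contribute to this compartment. The 14 against 1895 cells therefore cannot be read as an effect of Tet loss. Whether the 14 cells were Tet-TKO was not tested. Without the ExE ectoderm-like and ExE endoderm-like cells, Ascl2 was at 2.87 and 7.19 CPM, a log2 ratio of -1.33.

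H19 was at 87.4 CPM in Tet-TKO and 348.5 CPM in WT host cells, a log2 ratio of -1.995 (-2.03 to -1.96), and at 85.0 and 197.3 CPM without those cells, a ratio of -1.21. Cdkn1c was at 58.2 and 146.6 CPM, a log2 ratio of -1.33 (-1.38 to -1.29), and at -1.39 without them. Both RNAs were lower with and without the ExE ectoderm-like and ExE endoderm-like cells. Phlda2 was at 1567 CPM in Tet-TKO and 1016 CPM in WT host cells, a log2 ratio of 0.63 (0.61 to 0.64). Kcnq1ot1 was nearly level at 77.4 and 81.3 CPM, a ratio of -0.07 (-0.11 to -0.03), and at 77.4 and 94.9 CPM without those 2 classes, a ratio of -0.29. Igf2 was at 2.07 and 3.54 CPM, from 218 and 367 UMIs, a ratio of -0.78 (-1.02 to -0.53) that was -0.06 without those 2 classes. Slc22a18 was at 3.70 and 5.03 CPM, a ratio of -0.45 (-0.64 to -0.25) that was -0.27 without them.

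Over 21 classes, the interval of H19 lay wholly below 0 in 17 and above it in 1, that of Cdkn1c in 13 and 1, that of Phlda2 in 7 and 10, that of Kcnq1ot1 in 6 and 1, and that of Ascl2 in 4 and 2. The interval of Slc22a18 lay above 0 in 1 class and that of Igf2 in none. Over all 237024 gene and class pairs, 8.79% lay wholly below and 5.98% wholly above. Counting intervals narrow as UMIs increase, and these shares are not matched for level to abundant members such as H19 and Phlda2. The median log2 ratio over classes was -1.58 for H19, -0.73 for Cdkn1c, 0.08 for Phlda2, -0.21 for Kcnq1ot1 and -0.64 for Ascl2. H19 and Cdkn1c were both far below the host in gut-like cells, 71 in Tet-TKO and 521 in the host: H19 was at 18.0 and 355.2 CPM, a log2 ratio of -4.30 (-4.95 to -3.73), and Cdkn1c at 52.5 and 456.1 CPM, a ratio of -3.12 (-3.48 to -2.78). In epiblast-like cells H19 was at 4.79 and 21.3 CPM and Cdkn1c at 12.6 and 27.3 CPM. The exceptions were erythroid-like cells for H19 and ExE endoderm-like cells for Cdkn1c. H19 was at 360.1 and 270.2 CPM in 31 and 503 erythroid-like cells. Their 8 erythroid markers summed to 187.5 and 1947 CPM and 8 ExE endoderm markers to 1.15 and 40.1 CPM (2 and 7 markers at 0 in Tet-TKO, part not tested). Cdkn1c was at 783.7 and 293.4 CPM in ExE endoderm-like cells, from 216 UMIs in 56 cells and 1628 UMIs in 423 cells. The part of depth per cell in that ratio was not tested, nor was it tested whether the 56 cells were Tet-TKO.

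**Figure D5:**
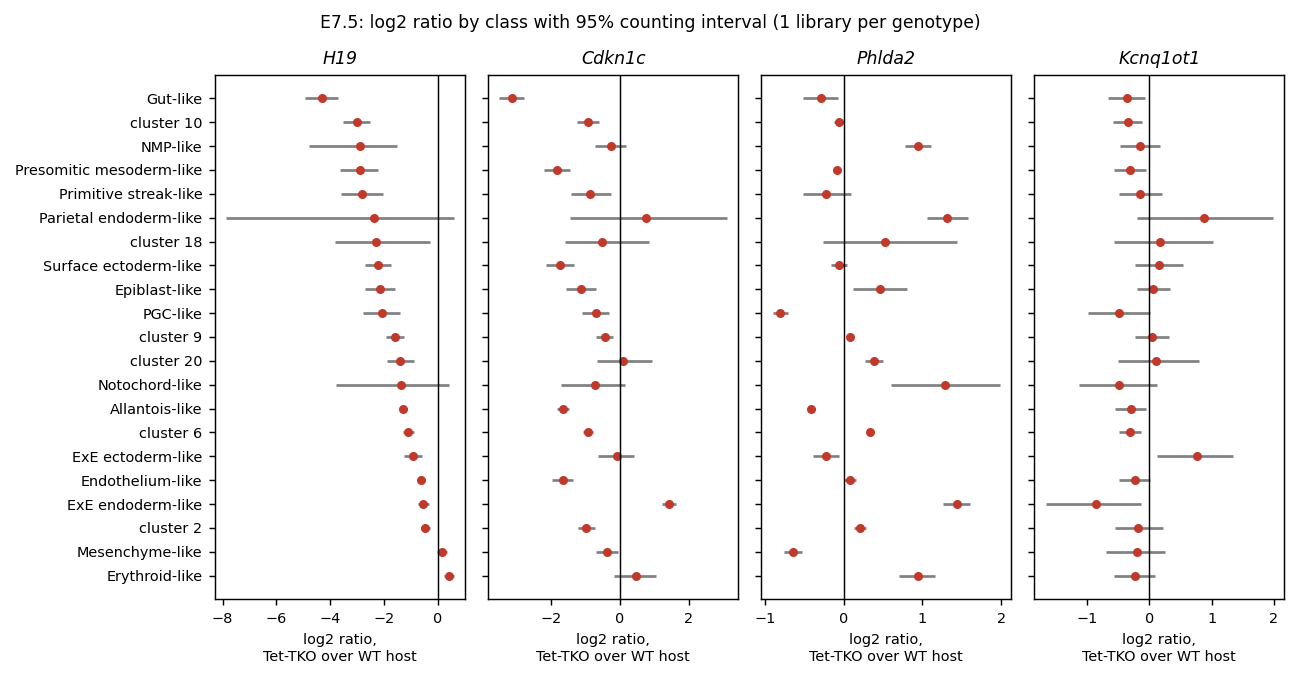
Points give the log2 ratio of Tet-TKO over WT host CPM at E7.5 for H19, Cdkn1c, Phlda2 and Kcnq1ot1 in 21 cell classes, and bars are 95% counting intervals from 1 library per genotype. H19 reaches -4.30 and Cdkn1c -3.12 in gut-like cells, whereas Phlda2 has 10 intervals above and 7 below 0.

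In the allantois-like cells, which were present at both stages, H19 was at 178.2 CPM in Tet-TKO and 434 CPM in WT host cells at E7.5 (151 and 206 cells). At E8.5 it was at 607.6, 633, 1151 and 1195 CPM against 919.5 and 1158 CPM, overlapping the host. Cdkn1c in these cells was at 97.7 and 303.5 CPM at E7.5 and lay below the host at both stages. Phlda2 was at 2088 and 2779 CPM at E7.5, also lower in Tet-TKO cells at both stages. The difference between stages was not tested, since E7.5 has no replicates.

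Among the neighbours of the 2 clusters on distal chromosome 7, 15 of 17 listed genes could be tested in whole E8.5 libraries, with a median log2 fold change of 0.11 against 0.02 over all genes, and 2 of them were called, where 2.65% of all genes were. Lsp1, a leukocyte cytoskeletal protein, rose by 1.07 on the log2 scale (SE 0.14, edgeR adjusted p = 0.00652), and Tspan32, a tetraspanin of blood cells, fell by 2.59 (SE 0.30, edgeR adjusted p = 0.00451), while 0 of 168 class pairs were called. Both calls were lost with the Tet-TKO libraries summed in pairs (edgeR adjusted p of 0.0505 and 0.0264), without erythroid-like cells (0.0166 and 0.0196), and without either host library. Of 18 genes of the insulin-like growth factor pathway (ligands, receptors, binding proteins and mRNA-binding proteins), 17 were tested and 0 called in whole libraries, at a median of 0.25. In 262 class pairs of that list, 1 was called higher and 1 lower (0.763%, near the 0.658% of all gene and class pairs). All 10 genes of a list of those that maintain imprints were tested and 0 were called in whole libraries or in 193 class pairs, at a median of 0.12. Of 20 imprinted genes of other regions, 4 rose in whole libraries and 0 fell, at a median of 0.66, where 2.65% of all genes were called. All 4 lost their call with the Tet-TKO libraries summed in pairs or without WT host library 1. In classes, 31 of 393 pairs were called higher and 0 lower (7.89% of pairs, against 0.658% of all gene and class pairs). Among these calls, 13 were of Snrpn, 9 of Zdbf2, 4 of Plagl1 and 2 of Ndn. The list was chosen with earlier results of these data known, so its shares are not an independent test.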

How the data were processed

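The authors generated 10x 3′ libraries from sorted cells of pooled chimaeras, aligned them to mm10 using Cell Ranger, and deposited unnormalized UMI counts of every gene. The deposited barcodes each had at least 500 UMIs. The members and lists were chosen with earlier results of these data known. Kept cells had 1500 UMIs or more, with no more than 30% of them mitochondrial and 35% ribosomal. Per stage, 2500 variable genes without the members gave 50 principal components, corrected by 20 mutual nearest neighbours between libraries, and Leiden clusters at resolution 2 on 15 neighbours (scanpy 1.11.5, leidenalg 0.10.2, Python 3.11.15). A class name needed at least 3 raised markers. Doublets (0.791% to 7.90% of cells per library by Scrublet) were removed only as an alternative.

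UMIs of a class were added up within a library where it had 10 cells or more and each genotype 2 such libraries, and tested with filterByExpr, TMM and the quasi-likelihood test of edgeR 4.0.16 in R 4.3.3, adjusted over all genes tested by Benjamini and Hochberg. Called results passed both 0.01 in adjusted p and 1 in log2 fold change of either sign. CPM was computed from the deposited counts. E7.5 ratios have 95% exact intervals. An overlap count used pairs of at least 10 UMIs. The interaction had library as a block. DESeq2 1.42.0, other filters and left-out libraries were alternatives, and the tests were tried on simulated data. The text names all 7 members, the 3 genes most like each among those of mean CPM of at least 10, and list genes called in whole libraries or the same way in at least 50% of the classes tested, besides gene models that overlap members. Positions are from GENCODE M21 (mm10) and sequences from RefSeq.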

Additional observations from a re-analysis of the deposited data

Results flagged for a closer look

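Igf2 in E8.5 Tet-TKO neurectoderm-like cells was at 1.20, 0.668, 0.721 and 0.745 CPM, and library 1 stood apart from the others, with a gap of 0.854 of the whole range, above Dixon's 95% critical value for 4 samples. These levels rest on 8, 7, 8 and 6 UMIs, and the 95% counting interval of library 1 (0.517 to 2.36 CPM) overlaps those of the others. The part of counting error in the gap was not tested. This group was 1 of 30 examined, and chance flags about 1 in 20. The genotype effect on Cdkn1c differed between allantois-like and neurectoderm-like cells by -1.02 on the log2 scale in a test of the difference itself.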

How the results depend on the processing

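Of the results for the main comparisons, 240 kept their direction and side of the threshold or moved less than their spread, 21 moved, 9 reversed, 6 weakened and 2 strengthened over the alternatives; of the single member and class results 247 held, 38 weakened, 10 reversed and 2 strengthened. The cause was not tested. The sums with Tet-TKO libraries 1 and 2 only, and 3 and 4 only, were chosen after seeing the data. Members called in whole libraries went from 0 to 2 with libraries 3 and 4 only (9.77% of all genes called). Called member and class pairs went from 2 to 10 with no filter on low counts (1.33% of all gene and class pairs called), 1 (Phlda2 in cluster 25) with Tet-TKO libraries summed in pairs (0.432%), 7 with libraries 1 and 2 only (1.86%), 21 with libraries 3 and 4 only (4.74%), 1 with at least 30 cells per sum (0.636%), 1 at resolution 1 (0.734%), and 0 to 5 with 1 library left out (5 without Tet-TKO library 1, against 0.724%, and 0 without WT host library 2, against 0.154%).

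In whole libraries, Cdkn1c went to -0.25 with libraries 3 and 4 only, -0.10 without erythroid-like cells and -0.21 to 0.34 with 1 library left out. Phlda2 went to -0.66 with libraries 3 and 4 only and -0.0622 to 0.77 with 1 left out, and Kcnq1ot1 to -0.31 with libraries 1 and 2 only (edgeR adjusted p = 0.0132). For the allantois-like minus neurectoderm-like difference, H19 was -0.30 with libraries 1 and 2 and 1.01 with 3 and 4, Phlda2 -1.05 and 1.20, Cdkn1c -0.83 with 1 and 2 only, -0.99 with no filter and -0.97 in tdTomato-matched cells, and Slc22a18 -0.0037 at resolution 1. With 1 library left out it was -1.14 to -0.87 for Cdkn1c, -0.64 to 0.10 for Phlda2 and -0.95 to 0.29 for Ascl2. The equal-weight value with libraries 1 and 2 only was 0.21 for Phlda2 and -0.23 for Kcnq1ot1. At E7.5 without ExE classes, Igf2 was -0.0650, H19 -1.21, Cdkn1c -1.39, Phlda2 0.67, Kcnq1ot1 -0.29 and Ascl2 -1.33, and in tdTomato-matched cells H19 was -2.14, Cdkn1c -1.41 and Phlda2 0.60.

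Replicate numbers 1 and 2 are shared by both genotypes. Both fractions were sorted from pooled chimaeras and the study speaks of matching hosts, but which libraries match is not given in the sources used here, and deviations of 2 host libraries mirror each other, so whether the numbers pair the samples is not known. Tet-TKO libraries 3 and 4 have no host of their number and add nothing to the genotype effect under the block. With the replicate block, 11 of 115 member and class pairs were called, against 3.08% of all gene and class pairs, and Kcnq1ot1 in whole libraries was -0.31 (edgeR adjusted p = 0.00306). Depth limits Igf2, Slc22a18 and Ascl2, which had few UMIs in many classes.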

Other observations

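The imprinted genes of other regions that passed the test in whole E8.5 libraries were Snrpn, Zdbf2, Plagl1 and Ndn, all paternally expressed. Their list was chosen with earlier results of these data known. Snrpn, a spliceosomal protein gene, rose by 1.75 on the log2 scale (SE 0.11, edgeR adjusted p = 0.00102) and was called higher in 13 of 22 classes, where 0.658% of all gene and class pairs were called. Zdbf2, a zinc-finger gene, rose by 1.91 (SE 0.21, edgeR adjusted p = 0.00389) and was called in 9 of 22 classes. Plagl1, a zinc-finger regulator of other imprinted genes, rose by 1.79 (SE 0.18, edgeR adjusted p = 0.00292) and was called in 4 of 19 classes. Ndn, a neuronal growth suppressor, rose by 1.36 (SE 0.12, edgeR adjusted p = 0.00181) and was called in 2 of 22 classes. All 4 lost their call with the Tet-TKO libraries summed in pairs (edgeR adjusted p from 0.0150 to 0.0226) or without WT host library 1 (0.0107 to 0.0415), Plagl1 and Zdbf2 also without WT host library 2 (0.0163 and 0.0253) or Tet-TKO library 3 (0.0104 and 0.0114), with log2 fold changes of at least 1.22 in each case. The 7 members of the distal chromosome 7 clusters gave 2 called pairs of 119 in the same fits, against the same 0.658%.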
